A study of Mus musculus with 12 samples.

Results

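Odorant receptor genes with symbols Olfr470 to Olfr542 and Olfr694 to Olfr716, whose numbers stand on either side of the class I range, were followed in the olfactory mucosa of mice lacking enhancer A (eA). The genes were taken by symbol alone, counting names made of Olfr and a number and no pseudogene suffix, so no expression value entered the choice. The rule covers 96 numbers and found 76 genes among 46297 gene rows and 1109 receptors with such names. Olfr542, the last number of the first range, has no row in the table analysed here.

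The study profiled total RNA from 12 male mice at postnatal day 30. Of these, 6 carried the eA deletion and 6 were wildtype, and both groups have the strain label 129S6;C57BL/6J. The deletion removed 912 bp of chromosome 7, from 102509701 to 102510612, and the zygosity is not given in the labels. The series title names eA as a class I receptor enhancer, so these receptors address how far along chromosome 7, and across which receptor class, expression differed without it.

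Odorant receptors are G protein-coupled receptors on the cilia of olfactory sensory neurons, and each mature neuron transcribes a single allele of a single receptor gene. Mammalian receptors form an older class I, related to fish receptors and gathered in a cluster on mouse chromosome 7, and a larger class II spread over many chromosomes. Choice of a gene depends on its promoter and on enhancers within receptor clusters, which bind the factors Lhx2 and Ebf and act mostly on receptors near them. A known class II example, the P element, lies in the cluster that holds P2 (Olfr17), P3 (Olfr713) and P4 (Olfr714), which is the cluster of the Olfr694 to Olfr716 genes studied here.

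All 76 genes lie on chromosome 7 in GRCm38, with 36 on the plus strand and 40 on the minus strand. They form 3 clusters when a gap of over 1 Mb starts a new one. Olfr520 and Olfr521 stand before the element, at 2740 to 2773 kb. A group of 60 genes follows the class I cluster between 4174 and 6383 kb after the element. It has a proximal block of 19 genes (Olfr694 to Olfr716, 4.17 to 4.63 Mb) and a distal block of 41 genes (Olfr470 to Olfr519, 5.33 to 6.38 Mb). The last 14 genes, Olfr522 to Olfr541, lie 37.6 to 38.2 Mb after the element, so a place beside the class I cluster does not describe them.

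GENCODE marks 75 of the genes as protein coding and Olfr471 as a pseudogene. RefSeq synonyms place the 75 in 15 receptor families, named MOR with a number. The largest is MOR204 with 29 genes, all in the distal block, followed by MOR283 with 11 genes, all in the proximal block. Coding sequences of the 75 genes were 55.1% identical in the median pair. Within a block the median pair was 61.0% identical, against 54.3% between blocks, and the 18 pairs at 90% or above all lay within a block.

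The class was checked by sequence, and 2 genes went against the label. Olfr503 was 97.1% identical in coding sequence to the class I receptor Olfr658, and both carry the family name MOR34. Olfr504 was 95.5% identical to the class I receptor Olfr657, and both carry the family name MOR40. The closest other gene of the set was only 54.3% identical to either of them. In the other direction, Olfr693, the last class I symbol, belongs to MOR283, lies next to Olfr694 and was 83.0% identical to Olfr705. Class was assigned by symbol, so Olfr693 was kept in the class I counts, median and sums below. The first 120 coding bases of Olfr503 and its class I relative are shown because they place a gene of the distal block with class I. Capitals mark the 6 bases at which they differ.
Olfr503: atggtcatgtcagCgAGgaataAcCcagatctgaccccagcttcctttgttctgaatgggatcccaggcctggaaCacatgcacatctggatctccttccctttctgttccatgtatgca
Olfr658: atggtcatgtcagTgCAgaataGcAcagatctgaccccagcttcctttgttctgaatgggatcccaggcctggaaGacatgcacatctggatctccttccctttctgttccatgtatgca

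The 3 closest pairs within the set are shown because reads from such stretches bear on whether 2 neighbours can be counted apart. Each line is the 120-base coding stretch, 5′ to 3′ in the direction of the gene and with bases counted from the start codon, that holds the most differences of its pair, and capitals mark them. Olfr486 and Olfr487 were 96.2% identical over 945 coding bases, with 14 differences in bases 625 to 744.
Olfr486: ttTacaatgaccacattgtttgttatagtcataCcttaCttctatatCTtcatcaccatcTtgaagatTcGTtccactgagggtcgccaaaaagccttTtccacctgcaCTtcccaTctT
Olfr487: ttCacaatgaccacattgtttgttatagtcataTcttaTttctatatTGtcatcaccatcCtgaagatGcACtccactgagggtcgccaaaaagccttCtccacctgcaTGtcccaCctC
Olfr476 and Olfr477 were 95.2% identical over 933 bases, with 17 differences in bases 191 to 310.
Olfr476: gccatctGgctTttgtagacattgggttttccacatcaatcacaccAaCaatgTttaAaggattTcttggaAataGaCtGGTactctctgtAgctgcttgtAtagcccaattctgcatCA
Olfr477: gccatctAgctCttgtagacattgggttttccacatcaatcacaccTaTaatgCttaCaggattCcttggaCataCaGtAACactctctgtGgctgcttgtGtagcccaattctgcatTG
Olfr516 and Olfr519 were 94.5% identical over 945 bases, with 32 differences in bases 379 to 498.
Olfr516: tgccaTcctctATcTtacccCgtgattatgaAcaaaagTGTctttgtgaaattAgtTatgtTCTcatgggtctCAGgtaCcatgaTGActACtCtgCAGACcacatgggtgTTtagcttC
Olfr519: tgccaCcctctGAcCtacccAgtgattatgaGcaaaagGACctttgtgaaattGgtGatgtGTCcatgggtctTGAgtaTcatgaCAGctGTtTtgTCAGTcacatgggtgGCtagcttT

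Sharing with other transcripts was limited for most genes of the set. In windows of 50 transcript bases, 9 genes shared none with another gene, the median gene shared 4.40% and 21 genes shared over 10%. Olfr482 shared the most, 44.4%, followed among the pairs above by Olfr486 with 38.6%. Values of these genes are uncertain, but the shares do not give the size of the error. It is not stated how reads that match several genes were handled. Olfr487 averaged 58.6 ± 11.7 normalized counts in deletion libraries and 49.6 ± 7.38 in wildtype libraries (SD, n = 6 each). Olfr486 averaged 3.42 ± 0.836 in deletion libraries and 5.37 ± 1.63 in wildtype libraries. Olfr476 and Olfr477 had closer levels, at 34.5 ± 10.9 and 37.5 ± 8.37 in deletion libraries. Their wildtype means were 51.4 ± 12.1 and 37.0 ± 2.64. Unlike levels do not show that the reads of a pair were told apart.

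The values are normalized counts, the reads of a gene divided by a size factor of its library. Recovered reads summed to between 13011763 and 23039733 per library. Reads of Gm10800, a predicted gene, made up 4.50% and 2.78% of deletion libraries 3 and 6 and 7.80% and 7.01% of wildtype libraries 2 and 3, against at most 0.885% in the others. Markers of mature olfactory neurons were abundant, with Omp, the olfactory marker protein, at 63115 ± 5927 normalized counts in deletion libraries and 60400 ± 6696 in wildtype libraries (SD, n = 6 each), and 0 of the 13 markers passed the test described below. Their log2 changes, deletion over wildtype, were positive for 12, where 52.6% of all tested genes were positive, with a median of 0.08.

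Levels of the 76 receptors covered a wide range, with means over the 12 libraries between 0.382 (Olfr514) and 1978 (Olfr536) normalized counts. There were 24 genes above 100 and 5 below 1.5, and 68 had a read in all 12 libraries. Olfr536 had a lowest, median and highest value of 1895, 2087 and 2260 in deletion libraries, and of 1628, 1845 and 2280 in wildtype libraries. Olfr533 had 987, 1010 and 1107 in deletion libraries, and 788, 967 and 1099 in wildtype libraries. The groups overlapped for both genes, which are members of the small family MOR252, and together with Olfr530 gave that family a sum of 3154 ± 119 in deletion libraries and 2902 ± 289 in wildtype libraries.

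Levels of different genes were compared per kb of annotated exon. Olfr536 averaged 483 normalized counts per kb in deletion libraries and 440 in wildtype libraries, and Olfr533 357 in deletion libraries and 335 in wildtype libraries, the 2 highest of the set. Over all 12 libraries the next were Olfr541, with 95.2 in deletion libraries and 90.3 in wildtype libraries, and Olfr705, with 97.6 in deletion libraries and 86.1 in wildtype libraries. Medians over the genes of a block were 56.0 per kb for Olfr522 to Olfr541, 27.6 for the proximal block, 14.8 for the distal block and 4.42 for Olfr520 and Olfr521, over all 12 libraries. By normalized counts, 5 of the 8 most abundant receptors belonged to the Olfr522 to Olfr541 block, and the other 3 (Olfr706, Olfr701 and Olfr705) were MOR283 genes of the proximal block.

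**Figure D1:**
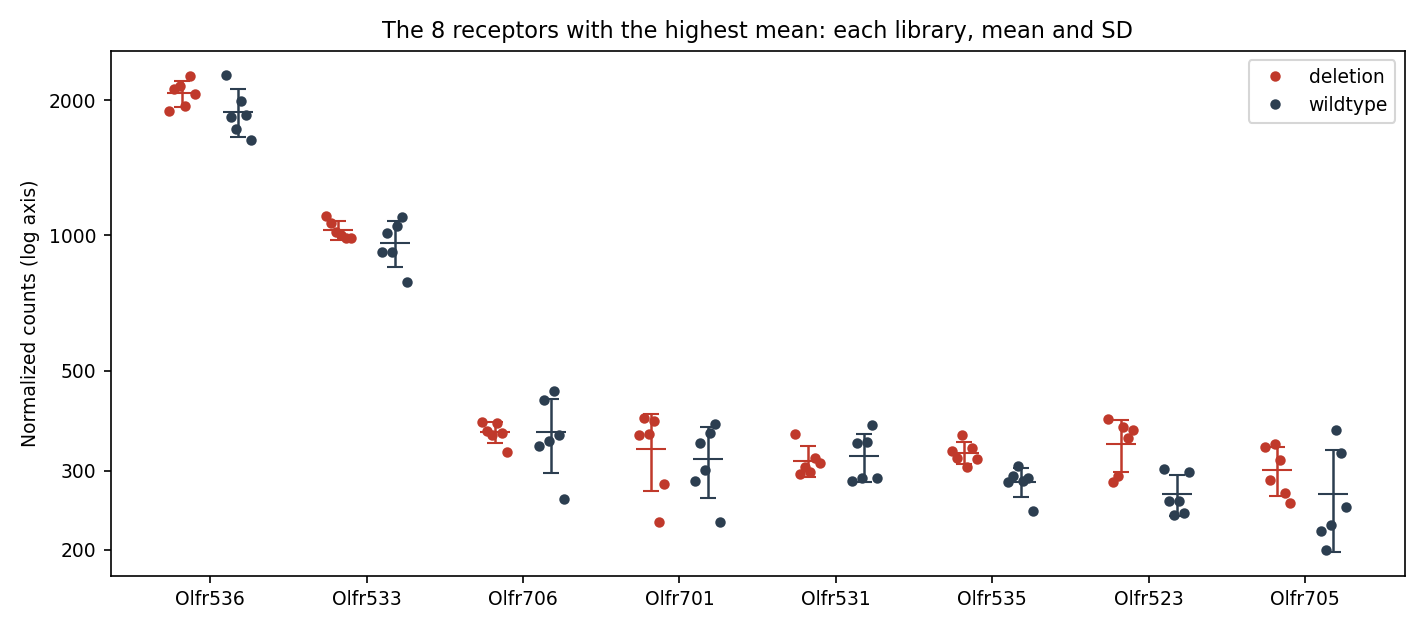
Normalized counts (log axis) of the 8 receptors with the highest mean, 1 point per library, with deletion libraries left of wildtype libraries and bars for mean ± SD (n = 6 each). Olfr536 and Olfr533 stand above the rest, and for no receptor are the groups fully apart.

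Spread between animals exceeded read counting for most genes. The SD among libraries was 1.51 times (deletion) and 1.57 times (wildtype) that expected from read counting in the median tested gene. It was at or below the counting SD for 4 genes in deletion libraries and 6 genes in wildtype libraries. The widest wildtype ratios were those of Olfr536 (5.21), Olfr705 (4.13) and Olfr533 (3.59), whose deletion ratios were 3.00, 2.18 and 1.51. The ratio is not a spread relative to the mean, and Olfr536 and Olfr533 are also the most abundant receptors of the set. Olfr536 averaged 1886 ± 228 normalized counts in wildtype libraries. Olfr470 averaged 31.0 ± 12.5 there, a wider spread for its level at a lower ratio of 2.23. The narrowest were those of Olfr477 (0.43), Olfr698 (0.64) and Olfr694 (0.69), whose deletion ratios were 1.37, 1.98 and 2.50. These receptors were picked by their wildtype ratios, so their deletion ratios do not show a change of spread. As a description, the median Pearson correlation over the 12 libraries, after group means were removed, was 0.105 for adjacent genes of a block, 0.138 for pairs of the same block and 0.0856 for pairs of different blocks. All pairs share library and depth.

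**Figure D2:**
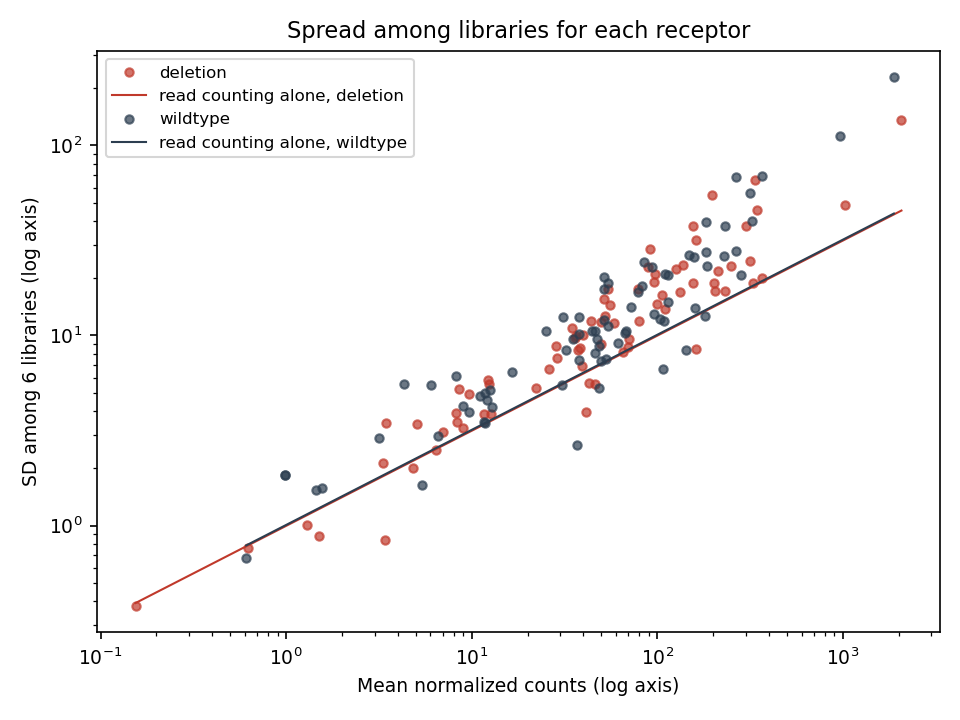
SD among 6 libraries against mean normalized counts (both log axes) for each receptor in each group, with lines for the SD that read counting alone would give. Most points lie above the lines, and a receptor with no read in a group is not drawn for it.

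No receptor of the set passed the test in either direction. Of the 76 genes, 62 had a mean of at least 10 normalized counts and were tested, and the other 14 were too low. The test was limma on log2(value + 1) with a trended variance, fitted across 19373 genes with Benjamini-Hochberg adjustment over all of them. Changes are deletion over wildtype, and the added 1 makes them understate the change of low genes. At an adjusted p under 5%, 0 of 62 were higher and 0 of 62 were lower in deletion libraries, where 0.031% of all tested genes were higher and 0.341% lower, 0.372% in either direction. The smallest adjusted p in the set was 0.238 (Olfr525). At an unadjusted p under 0.05, 5 were higher (8.06%, against 3.49% of all tested genes) and 1 was lower (1.61%, against 3.2%), so that 6 of 62 stood against 6.68% of all tested genes in either direction.

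Other tools made no call either. On recovered reads, edgeR and DESeq2 each called 0 receptors at 5%, with 7 at an unadjusted p under 0.05 in each. The share of all tested genes under 0.05 is not given for these tools, so the 7 cannot be set against a background. In the authors' deposited table, 66 of the receptors had an adjusted p, 0 of them under 0.05, and the smallest was 0.0976 (Olfr525). No tested receptor had groups that did not overlap, where the groups stood apart for 0.145% (deletion higher) and 0.444% (deletion lower) of all tested genes.

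The intervals set the size of change that these libraries could leave unseen. For 56 of 62 receptors the 95% interval of the log2 change lay within a 2-fold change in either direction (90.3%, against 90.8% of all tested genes), and for 43 within a 1.5-fold change. The lowest bound was -1.39 (Olfr513) and the highest was 1.00 (Olfr493). The median change of the 62 was 0.05, with 39 positive and 23 negative estimates (62.9% positive, against 52.6% of all tested genes), beside a median of 0.01 over all tested genes. The median was 0.09 over the other 831 tested class II receptors, of which 4 were higher and 1 lower at an adjusted p under 5%. Of those, 65.0% had positive estimates and 11.1% were higher at an unadjusted p under 0.05. The median was -0.92 over 114 tested class I receptors, of which 2 were higher and 62 lower.

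**Figure D3:**
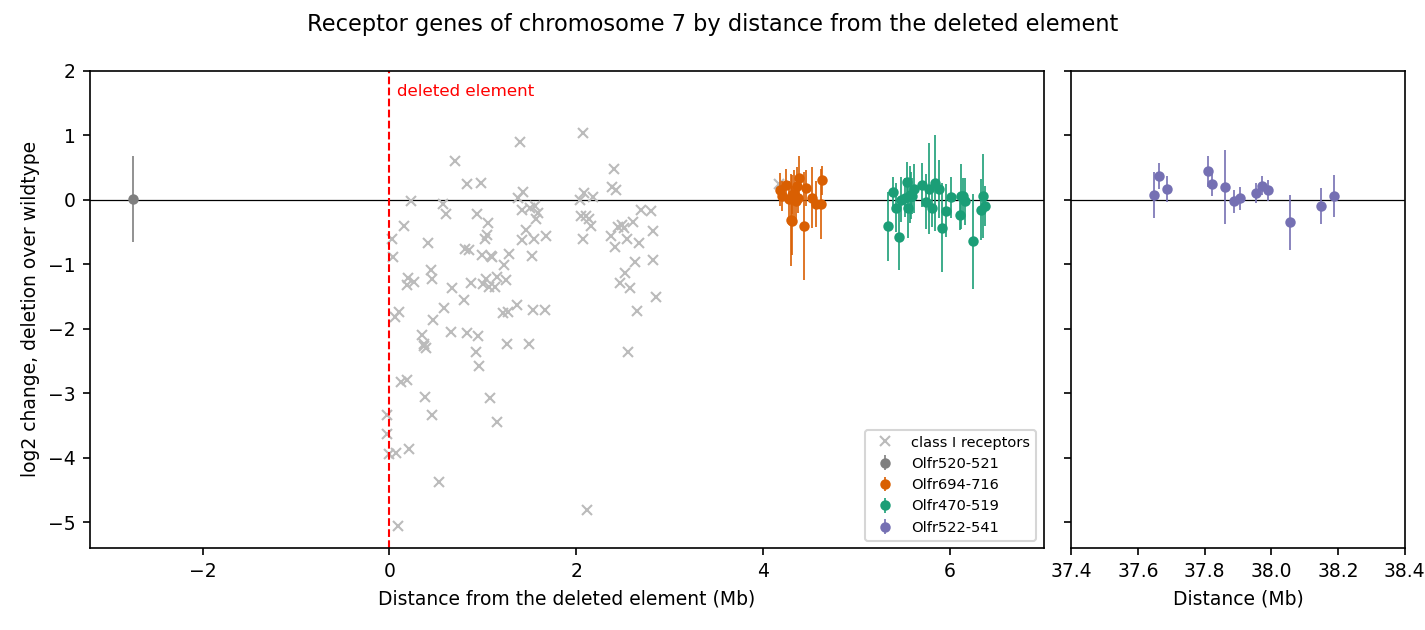
The log2 change (deletion over wildtype) of tested receptors on chromosome 7 against distance from the deleted element in Mb, with negative distances before it and a separate panel for the far cluster. Crosses are receptors of class I by symbol, which includes Olfr693, without intervals. Coloured points are receptors of the set with 95% intervals, and they run from -0.65 to 0.44.

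**Figure D4:**
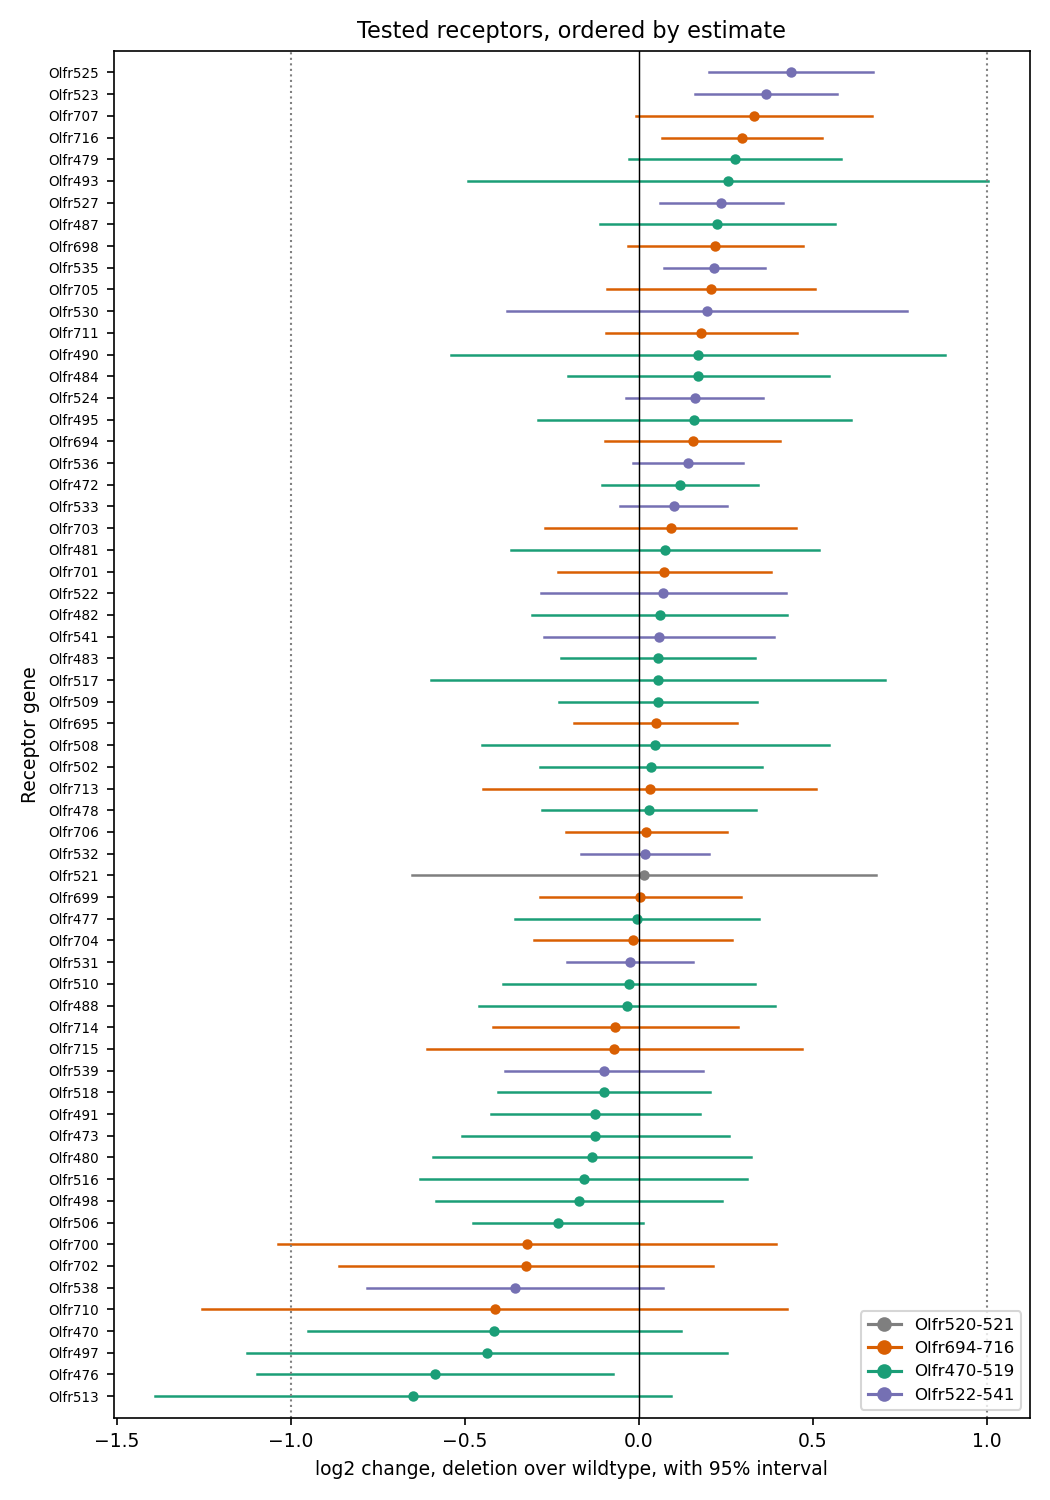
The log2 change (deletion over wildtype) with its 95% interval for each of the 62 tested receptors, ordered by estimate and coloured by block, with dotted lines at a 2-fold change. A total of 56 intervals include 0, and the upper end of the order holds Olfr525 and Olfr523.

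Receptors from Olfr522 to Olfr541, the block farthest from the element, had the highest median of the blocks, a block examined after its values were seen. All 14 were tested, 11 estimates were positive (78.6%, against 52.6% of all tested genes and 65.0% of other class II receptors), and the median change was 0.12. An unadjusted p under 0.05 was found for 4 receptors, all of them higher (28.6%, against 3.49% of all tested genes and 11.1% of other class II receptors). The median SE of the log2 change was 0.094 in this block and 0.153 over other class II receptors, so these shares were drawn at unlike precision. The part of this in the shares was not tested. Olfr525, of the MOR251 family, had a lowest, median and highest value of 122, 157 and 175 in deletion libraries, and of 96.8, 114 and 132 in wildtype libraries. All 6 deletion libraries were above the wildtype mean, although the ranges overlapped. Its means were 155 ± 18.9 in deletion libraries and 114 ± 15.02 in wildtype libraries, a log2 change of 0.44 ± 0.11 (SE, limma adjusted p = 0.238).

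Olfr523, the only MOR104 gene of the set, had 283, 362 and 390 in deletion libraries, and 239, 257 and 302 in wildtype libraries. Here too all 6 deletion libraries exceeded the wildtype mean, with 2 of them inside the wildtype range. The log2 change was 0.37 ± 0.10 (SE, limma adjusted p = 0.281). Olfr535 (MOR253) averaged 328.5 ± 18.9 in deletion libraries and 283 ± 20.8 in wildtype libraries, with a log2 change of 0.22 and a limma adjusted p of 0.547. Olfr527 (MOR251) averaged 213.5 ± 21.8 in deletion libraries and 180.6 ± 12.7 in wildtype libraries, with a log2 change of 0.24 and a limma adjusted p of 0.661.

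Other genes of this block had estimates nearer to 0 or negative. Olfr536 and Olfr533, whose levels are given above, had log2 changes of 0.14 and 0.10 with limma adjusted p of 0.751 and 0.799, and that of Olfr533 was 0.04 without wildtype library 6. Olfr531 averaged 315 ± 24.8 in deletion libraries and 322 ± 39.9 in wildtype libraries. Olfr538 had the lowest estimate of the block, -0.36, with values of 21.7, 38.8 and 47.2 in deletion libraries, and of 32.5, 46.3 and 54.9 in wildtype libraries (lowest, median and highest), so the groups overlapped widely. The nearest and the farthest gene of the block, Olfr522 and Olfr541, had estimates of 0.07 and 0.06. All 14 intervals of this block lay within a 2-fold change.

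The proximal block, Olfr694 to Olfr716, is the nearest of the blocks after the class I cluster. The class I symbol Olfr692 lies 2858 kb from the element, well before the block, and Olfr693 adjoins it. Of its 19 genes 18 were tested, 12 estimates were positive and the median change was 0.04. Olfr716 alone had an unadjusted p under 0.05 (5.56%, against 6.68% of all tested genes). Olfr694, the nearest to the element, had a lowest, median and highest value of 121, 157 and 199 in deletion libraries, and of 127, 144 and 151 in wildtype libraries. The deletion libraries thus enclosed the wildtype range, and the log2 change was 0.15 ± 0.12 (SE, limma adjusted p = 0.803). Olfr716, the farthest of the block, had 110, 134 and 155 in deletion libraries, and 89.6, 109 and 124 in wildtype libraries. All 6 deletion libraries were above the wildtype mean, with a log2 change of 0.30 ± 0.11 (SE, limma adjusted p = 0.689).

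The abundant MOR283 receptors of this block had close group means. Olfr706 averaged 364.7 ± 20.2 in deletion libraries and 364.7 ± 69.1 in wildtype libraries. Olfr701 averaged 335 ± 65.4 in deletion libraries and 318 ± 56.5 in wildtype libraries, and Olfr705 301 ± 37.7 in deletion libraries and 266 ± 67.8 in wildtype libraries. None of these differences exceeded the SD of the wider group. The sum over the 11 MOR283 genes was 1719 ± 111 in deletion libraries and 1629 ± 213 in wildtype libraries.

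P3 and P4 are receptors of the P cluster, of the same family as P2. Olfr713 (P3) had 21.3, 40.2 and 44.9 in deletion libraries, and 22.4, 34.9 and 51.2 in wildtype libraries (lowest, median and highest). Olfr714 (P4) had 35.9, 41.8 and 52.6 in deletion libraries, and 32.5, 43.3 and 59.1 in wildtype libraries. The groups covered nearly the same range for both, with log2 changes of 0.03 and -0.07. P2 (Olfr17), a low-numbered gene of the same cluster and outside the rule, averaged 373 ± 41.1 in deletion libraries and 335 ± 25.3 in wildtype libraries, with a log2 change of 0.15 and a limma adjusted p of 0.751. Olfr2, the octanal receptor I7 and also outside the rule, averaged 85.7 ± 34.9 in deletion libraries and 78.7 ± 19.3 in wildtype libraries.

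The distal block, Olfr470 to Olfr519, held the lowest estimates. Of its 41 genes 29 were tested, 15 estimates were positive and 14 negative, and the median change was 0.03. Olfr476 had the only lower value at an unadjusted p under 0.05 (3.45%, against 3.2% of all tested genes). It had 19.0, 37.9 and 48.3 in deletion libraries, and 28.2, 56.7 and 60.2 in wildtype libraries (lowest, median and highest). Every deletion library was below the wildtype mean, and the lowest wildtype library lay inside the deletion range. The log2 change was -0.59 ± 0.24 (SE, limma adjusted p = 0.734), with a 95% interval from -1.10 to -0.07. Its close relative Olfr477 averaged 37.5 ± 8.37 in deletion libraries and 37.0 ± 2.64 in wildtype libraries.

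The other low estimates of the block lay between -0.65 and -0.10 among the genes named here. Olfr513, the only MOR195 gene, had 52 reads over the deletion libraries and 77 over the wildtype libraries, and a log2 change of -0.65 ± 0.35 (SE, limma adjusted p = 0.751), which was -0.37 without deletion library 4. Olfr470, with estimate -0.42, had 17.1, 21.6 and 29.9 in deletion libraries, and 16.2, 29.6 and 54.2 in wildtype libraries. The deletion values fell inside the wildtype range, whose top was set by wildtype library 3. Olfr506 averaged 138 ± 23.6 in deletion libraries and 160 ± 14.01 in wildtype libraries, with a log2 change of -0.23 and a limma adjusted p of 0.744. Olfr518, the farthest tested gene of the block, averaged 97.7 ± 21.0 in deletion libraries and 103 ± 12.2 in wildtype libraries, and Olfr516 averaged 28.9 ± 7.58 in deletion libraries and 32.2 ± 8.35 in wildtype libraries.

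Olfr520 and Olfr521, of the family MOR101, are the only genes of the set on the other side of the element. Olfr521 had 7.41, 10.3 and 20.2 in deletion libraries, and 7.23, 12.5 and 16.1 in wildtype libraries. The groups overlapped, with deletion libraries 2 and 6 above every wildtype library, and the estimate of 0.02 ± 0.31 (SE) had a 95% interval from -0.65 to 0.68. Olfr520 was too low to test, at 3.47 ± 3.49 in deletion libraries and 6.00 ± 5.46 in wildtype libraries.

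The 2 genes of class I type in the distal block were nearly silent in both groups. Of their class I relatives, Olfr658 was silent in neither group, and Olfr657 was nearly silent in deletion libraries only. Olfr503 shared 29.6% of its transcript windows with other genes, Olfr658 and Olfr659, and Olfr504 shared 9.02% with Olfr657. How reads that match several genes were handled is not stated, and the part of this sharing in the values of these genes was not tested. Olfr503 had a total of 4 reads over the deletion libraries and 8 over the wildtype libraries. Olfr504 had no read in the deletion libraries, a count that allows up to 3 reads over the group, and 5 reads in wildtype libraries 2 and 3. Its relative Olfr657, 2114 kb after the element, averaged 1.74 ± 1.58 normalized counts in deletion libraries and 67.1 ± 9.87 in wildtype libraries, a log2 change of -4.81 ± 0.34 (SE, limma adjusted p = 8.95e-07). Olfr658, the relative of Olfr503, averaged 98.1 ± 34.1 in deletion libraries and 116 ± 17.4 in wildtype libraries, with a log2 change of -0.30 and a limma adjusted p of 0.775.

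For the 14 genes too low to test, 12 had their highest value in wildtype library 2 or 3, the libraries with the largest share of Gm10800 reads. The same was so for 71.6% of all 26924 genes too low to test and for 19 of the 62 tested receptors. The summed value of the 14 was 130.6 in wildtype library 2 and 80.7 in wildtype library 3, and it lay between 37.0 and 73.2 in the other 10 libraries. The part of these libraries' composition in the low values was not tested.

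Receptors beside the limits of the rule, which are limits of symbol number alone, were read for comparison. Olfr543, the first symbol after the first range and 28.0 kb from the element, had 3.99, 7.55 and 13.0 in deletion libraries, and 74.1, 90.8 and 94.0 in wildtype libraries (lowest, median and highest). Its groups were far apart, with a log2 change of -3.34 ± 0.24 (SE, limma adjusted p = 8.95e-07). Olfr693, just before the second range, averaged 378 ± 48.6 in deletion libraries and 317 ± 25.5 in wildtype libraries, with a log2 change of 0.25 and a limma adjusted p of 0.657. Olfr469, just before Olfr470, averaged 61.7 ± 5.80 in deletion libraries and 63.9 ± 15.6 in wildtype libraries.

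Summed over all 76 genes, the set averaged 9517 normalized counts in deletion libraries and 8941 in wildtype libraries. This was 6.44% higher, a difference of 576, where the SD was 291 among deletion libraries and 652 among wildtype libraries. The family MOR252, with Olfr536 and Olfr533, gave 3154 of the deletion mean and 2902 of the wildtype mean, so few genes weigh heavily in the sum. Every deletion library was above the wildtype mean, as was the wildtype median. The sum was 9289, 9385 and 9975 normalized counts in deletion libraries, and 7787, 9207 and 9515 in wildtype libraries (lowest, median and highest). The groups overlapped, and wildtype library 6 stood lowest. Without wildtype library 6 the sum was 3.76% higher. In mature neuron markers, the mean log2 value was 13.43 ± 0.074 in deletion libraries and 13.35 ± 0.14 in wildtype libraries, and the part of this in the sums was not tested. In bulk tissue, fewer cells that express a receptor and less RNA per cell cannot be told apart.

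The block sums overlapped between groups, and the sizes of their differences changed when single libraries were left out. Of the larger blocks, only the distal block changed sign. Olfr522 to Olfr541 summed to 5443 ± 200.4 in deletion libraries and 4973 ± 377 in wildtype libraries, 9.45% higher (6.97% without wildtype library 6). The proximal block summed to 2314 ± 134 in deletion libraries and 2179 ± 266 in wildtype libraries, 6.17% higher, but 2.07% higher without wildtype library 6. The distal block summed to 1744 ± 113 in deletion libraries and 1771 ± 110.2 in wildtype libraries, 26.6 normalized counts lower. The difference was -71.5 without deletion library 2 and 5.13 without wildtype library 2. The other class II receptors summed to 112261 ± 4528 in deletion libraries and 104567 ± 8009 in wildtype libraries, 7.36% higher (4.24% without wildtype library 6), and class I receptors to 9306 ± 1193 in deletion libraries and 13825 ± 870 in wildtype libraries, 32.7% lower.

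As a share of all class II signal, the set was nearly the same in both groups. It made up 7.82% ± 0.223 in deletion libraries and 7.88% ± 0.201 in wildtype libraries (SD, n = 6 each), a difference of -0.062 percentage points. Single libraries ranged between 7.62% and 8.15% in the deletion group and between 7.63% and 8.07% in the wildtype group. Within the set, Olfr522 to Olfr541 gave 57.2% ± 1.57 of the signal in deletion libraries and 55.6% ± 1.45 in wildtype libraries. The distal block gave 18.3% ± 0.761 in deletion libraries and 19.9% ± 1.36 in wildtype libraries.

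**Figure D5:**
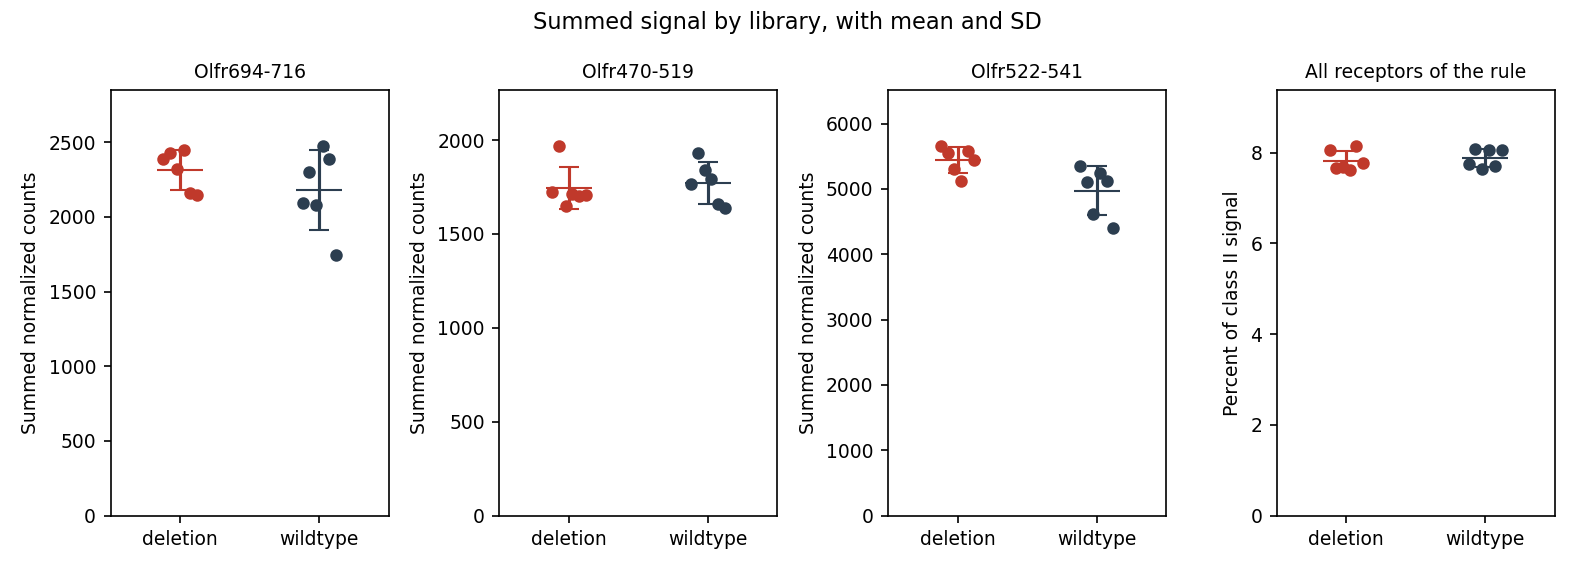
Summed normalized counts of the 3 larger blocks and the share of class II signal from the whole set, 1 point per library with mean ± SD (n = 6 each), deletion left of wildtype and axes from 0. The groups overlap in all 4 panels, and the share lies between 7.62% and 8.15% in all 12 libraries.

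The pathway that carries or chooses odorant receptors held no gene that passed the test. Of 25 genes on a list of signalling and choice factors, 0 were higher and 0 lower at an adjusted p under 5%, and 1 had an unadjusted p under 0.05 where 6.68% of all tested genes did. The median change was 0.07, and 22 estimates were positive where 52.6% of all tested genes were. This list shares Cngb1, Gnal and other genes with the mature neuron markers, so these lists are not separate observations. Cngb1, a subunit of the cyclic nucleotide-gated channel, averaged 5292 ± 301 normalized counts in deletion libraries and 4641 ± 344 in wildtype libraries, with a log2 change of 0.19 and a limma adjusted p of 0.543. Lhx2, a homeodomain factor that binds receptor promoters and enhancers, averaged 3386 ± 219 in deletion libraries and 3223 ± 207 in wildtype libraries. Among protein coding genes other than receptors that lie inside the 3 clusters, 6 of 8 in the middle cluster and 1 of 2 in the far cluster were tested, and 0 passed with 0 at an unadjusted p under 0.05.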

How the data were processed

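Total RNA of the olfactory mucosa was sequenced after ribosomal depletion with a stranded kit, per the labels' protocols, with 1 library from each of 12 animals. The build GRCm38.p6 and the tools STAR 2.6.0 and DESeq2 appear in the submitters' processing notes. How reads were counted, by strand or over several matches, is not stated. The authors deposited normalized counts (a signal, reads divided by the size factor of a library), log2 changes given as wildtype over deletion, a statistic (score) and p-values. Each of the 12 library columns carries the name of its sample.

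Within a library the values step by a constant amount, the worth of 1 read. At least 99.989% came out whole within 0.01, so reads were recovered. The design took limma for normalized values: limma 3.58.1 (R 4.3.3) with a trend on log2(value + 1), genes with a mean of at least 10, no covariate, two-sided, Benjamini-Hochberg at 5% over 19373 genes. edgeR 4.0.16 and DESeq2 1.42.0 on recovered reads, a replicate block, other filters, pseudocounts and scalings, 2 covariates and leaving out libraries were alternatives. The scripts were tested on simulated data. No p was computed for sums or shares. Shared replicate numbers are not said to pair animals.

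Positions and exon lengths came from GENCODE M21 (GRCm38), matched by identifier for 99.8% of rows, and the deleted interval was taken as the same build. Distance runs from the nearer gene end to the interval. Families are RefSeq synonyms. Sequences shown are coding stretches of GENCODE M21 transcripts, and likeness is identity of aligned coding sequences, where the design named proteins. By symbol, class I comprised Olfr543 to Olfr693, Olfr64 to Olfr69, Olfr33 and Olfr78, and Olfr243, in the class I span, was counted in neither class.

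Named receptors were those past the test, the 5 smallest p in each direction, the 8 highest means, the nearest and farthest tested gene of each cluster, the 3 widest and narrowest spreads, those at the limits of the rule, P2, P3, P4 and I7, and the 3 closest pairs. Olfr503, Olfr504, their relatives, Olfr482, Olfr493, Olfr514, Olfr520 and Olfr530 were named after their values were seen. Receptors and lists were chosen with earlier results of these data known. The other lists covered immature neurons, progenitors, horizontal basal cells, supporting cells, Bowman gland, respiratory ciliated cells, immune and erythroid cells. Of their genes 0 passed the test, where 0.372% of all tested genes did, so these few genes cannot show that cell composition was alike. Obp1a of the Bowman gland list averaged 10944 ± 6317 in deletion libraries and 27271 ± 16674 in wildtype libraries, a log2 change of -1.35. Bpifb9a of that list had a log2 change of 1.65, and the progenitor gene Neurog1 one of 0.51. Their limma adjusted p were 0.638, 0.773 and 0.484.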

Additional observations from a re-analysis of the deposited data

Results flagged for a closer look

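Single libraries were compared with the other 5 of their group by the gap to the nearest value over the whole range (Dixon's test, 95% critical value) in 78 groups of values, and 4 stood apart. Chance gives about 1 in 20. Olfr476, the receptor with the lowest p among lower estimates, had 28.2 normalized counts in wildtype library 6, where the other wildtype libraries had 48.4 to 60.2. Olfr531 had 362 in deletion library 1, where the other deletion libraries had 295 to 320. Olfr694, the receptor of the proximal block nearest to the deleted element, had 127 in wildtype library 1, where the other wildtype libraries had 143 to 151. The sum of the distal block, Olfr470 to Olfr519, was 1969 in deletion library 2, where the other deletion libraries had 1650 to 1725.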

How the results depend on the processing

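The count of 0 receptors past an adjusted p of 5% stood under all 23 alternatives, and for the 27 receptors named and tested the smallest adjusted p under any of them was 0.0703 (Olfr525). The median change of the 62 tested receptors ran from -0.004 to 0.09, with the lowest value when deletion library 2 was left out and -0.002 when wildtype library 6 was left out, so the sign of the median rests on these libraries. Leaving out 1 library at a time gave 6 to 9 receptors at an unadjusted p under 0.05, and all alternatives gave 5 to 9. Shares of all tested genes under these alternatives are not given, so these counts cannot be set against a background. The Olfr522 to Olfr541 median ran from 0.07 to 0.15. The change of the summed set ran from 3.76% to 7.83%, and the difference in its share of class II signal from -0.127 to -0.022 percentage points. With the replicate number as a block, 0 receptors passed and 7 had an unadjusted p under 0.05, with a median change of 0.05. Deviations of libraries of the same number correlated between -0.147 and 0.358, and 0 of 6 correlated best with their own number, so the numbers were not taken to pair animals. Depth limits the low receptors: 14 were not tested. Of the 6 tested intervals that reach beyond a 2-fold change, 5 belong to receptors with means under 15 normalized counts, and the sixth is that of Olfr476. Leaving out 1 library at a time moved the estimates of Olfr513 between -0.79 and -0.37 and of Olfr533 between 0.04 and 0.14. Block sums without single libraries were computed after the data were seen.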
